A study of Mus musculus with 8 samples.

Results

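The proximal signaling machinery of the T cell receptor was examined as 44 genes, all found among the 27594 genes of the count table. They were chosen by name from the pathway, with earlier results of these data known. Regulatory T (Treg) cells, the CD4+ T cells that hold back other immune cells, had been sorted by yellow fluorescent protein (YFP) from spleen and peripheral lymph nodes of C57BL/6 mice aged 6 to 8 weeks. Control mice carried Foxp3-YFP-Cre, a Cre recombinase and YFP expressed from the Foxp3 locus (WT). Foxp1 cKO mice carried Foxp3-YFP-Cre together with Foxp1fl/fl, the loxP-flanked alleles of the transcription factor Foxp1, so that both genotypes held the Cre allele and the deletion was driven in cells that express Foxp3. From each genotype, resting Treg (rTreg) cells were gated as CD4+YFP+CD44lowCD62Lhigh and activated Treg (aTreg) cells as CD4+YFP+CD44highCD62Llow. The 4 groups, WT rTreg, Foxp1 cKO rTreg, WT aTreg and Foxp1 cKO aTreg, had 2 libraries each.

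A T cell receptor that meets its ligand on another cell has no enzyme of its own. The Src family kinases Lck and Fyn phosphorylate the CD3 and zeta chains, Zap70 binds there and phosphorylates the adaptors Lat and SLP-76, and the complex built on them recruits phospholipase C gamma, Vav proteins and Tec family kinases. Diacylglycerol then feeds a Ras exchange factor and protein kinase C theta, and phosphatases, ubiquitin ligases and docking proteins damp each step. Treg cells need receptor signals both for their development and for the activated state, and the same pathway also carries many inhibitors.

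Genes of the pathway lie close together in places. Cd3g, Cd3d and Cd3e share chromosome 9, with 1354 bases between Cd3g and Cd3d, which face away from each other, and 11400 bases between Cd3d and Cd3e. The Tec family genes Txk and Tec sit 2938 bases apart on the minus strand of chromosome 5 in GRCm38, and Cd5 and Cd6 lie 50.3 kb apart on chromosome 19. RefSeq promoter windows for GRCm38.p6, each running from 250 bases before to 50 bases after a transcription start, were at hand for 35 of the 44 genes, with 51 windows in all. The windows of the 3 genes with the largest increases in the rTreg libraries labelled Foxp1 cKO follow, together with that of Grap2, the only one of the 51 windows with a forkhead core. Capitals mark the ETS core GGAAGT in the window of Tec (chr5:72868399-72868698, minus strand) and the forkhead core TGTTTAC in that of Grap2 (chr15:80623233-80623532, plus strand). Neither word, nor the AP-1 word TGANTCA, was in the window of Trat1 (chr16:48772013-48772312, minus strand) or in the window shown for Ubash3b (chr9:41158013-41158312, minus strand), all read 5′ to 3′ along the gene.
Tec: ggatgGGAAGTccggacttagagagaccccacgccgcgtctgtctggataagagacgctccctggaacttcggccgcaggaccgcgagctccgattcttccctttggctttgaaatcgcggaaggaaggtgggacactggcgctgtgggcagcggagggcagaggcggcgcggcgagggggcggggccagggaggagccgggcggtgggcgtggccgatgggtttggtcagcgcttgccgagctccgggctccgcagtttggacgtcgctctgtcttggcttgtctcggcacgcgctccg
Trat1: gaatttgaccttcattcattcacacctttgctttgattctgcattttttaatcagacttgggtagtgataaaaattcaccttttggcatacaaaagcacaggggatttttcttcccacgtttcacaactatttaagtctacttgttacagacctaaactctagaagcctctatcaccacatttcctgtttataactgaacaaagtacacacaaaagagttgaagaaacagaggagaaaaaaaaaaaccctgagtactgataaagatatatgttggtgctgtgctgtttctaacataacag
Ubash3b: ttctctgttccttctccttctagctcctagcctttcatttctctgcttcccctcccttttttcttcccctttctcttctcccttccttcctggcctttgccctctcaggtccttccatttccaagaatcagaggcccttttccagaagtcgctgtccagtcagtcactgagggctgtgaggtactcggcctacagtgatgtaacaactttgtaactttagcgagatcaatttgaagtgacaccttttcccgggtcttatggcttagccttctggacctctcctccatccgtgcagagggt
Grap2: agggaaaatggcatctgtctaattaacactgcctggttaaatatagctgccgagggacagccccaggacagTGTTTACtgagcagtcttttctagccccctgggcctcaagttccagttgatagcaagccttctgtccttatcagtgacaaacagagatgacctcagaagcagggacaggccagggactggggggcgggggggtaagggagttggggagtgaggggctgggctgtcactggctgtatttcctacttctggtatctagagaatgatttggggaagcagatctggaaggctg

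Motifs were counted on both strands, and the 3 words do not overlap one another in these windows. TGTTTAC was in 1.96% of the 51 windows and in 3.65% of 32851 RefSeq windows of the same length. GGAAGT, the core bound by ETS factors, was in 22 windows of 17 genes (43.1%), against 23.8% of all windows. In Tec it began 245 bases before the start, and in Cd3e 18 bases before it. TGANTCA was in 1 window, that of Vav3, against 7.81% of all windows. A match describes these letters and not a bound site.

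Libraries held 6373170 (Foxp1 cKO rTreg 1) to 15268623 (WT aTreg 2) counts, so that 3 counts corresponded to 0.196 to 0.471 CPM, counts scaled to library size (here the plain total). The 44 genes took 1.6% to 1.7% of them and all passed the filter on low counts. The lowest count was 89, for Tec in WT aTreg 1, and 43 of the 44 genes had at least 100 counts in every library. Labels do not say whether replicates came from separate mice or pools. P-values therefore measure only the spread among these libraries, shared over the 4 groups and left after the replicate difference is fitted. Cd44, a sort marker, followed the gates at 29.6 to 45.3 CPM in rTreg and 174 to 214 CPM in aTreg libraries. Foxp3 was at 429 to 646 CPM in all 8. Foxp1 itself was at 354 and 384 CPM in WT rTreg and at 342 and 338 CPM in Foxp1 cKO rTreg libraries (log2 fold change -0.12, adjusted p = 0.460). Both Foxp1 cKO libraries lay below both WT libraries there, and the difference was not called. In aTreg cells it was at 235 and 230 CPM against 126 and 102 CPM (log2 fold change -1.03, adjusted p = 0.00194). These are sums over the whole gene, which include exons outside the loxP sites. The paper reports complete deletion of Foxp1 in Treg cells of this genotype, by immunoblot, quantitative PCR and intracellular staining. Those Treg cells were not divided into rTreg and aTreg cells. The rTreg libraries are compared here as labelled Foxp1 cKO.

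Expressed per length, in the authors' FPKM values (read fragments scaled to transcript length and library size), the 44 genes covered 2 orders of magnitude in WT rTreg cells. Cd5, a surface receptor that dampens signaling, was highest at a mean of 321 FPKM. Dgka, a kinase that removes diacylglycerol, followed at 312 FPKM and Lck at 251 FPKM. Tec was lowest at 3.11 FPKM, below Vav3 at 6.06 FPKM and Themis at 6.07 FPKM. The median over the 44 genes was 76.5 FPKM in WT rTreg, 73.9 in Foxp1 cKO rTreg, 67.9 in WT aTreg and 64.6 in Foxp1 cKO aTreg cells. Among the receptor chains in WT rTreg cells, Cd3d was at 145 FPKM, Cd3g at 93.3, Cd3e at 81.4 and Cd247, the zeta chain, at 42.1 FPKM. For Cd247, 60.3% of the exonic bases overlap other annotated genes, so its level is uncertain. Exons of 11 of the 44 genes overlap another gene, and in the other 33 none do.

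**Figure D1:**
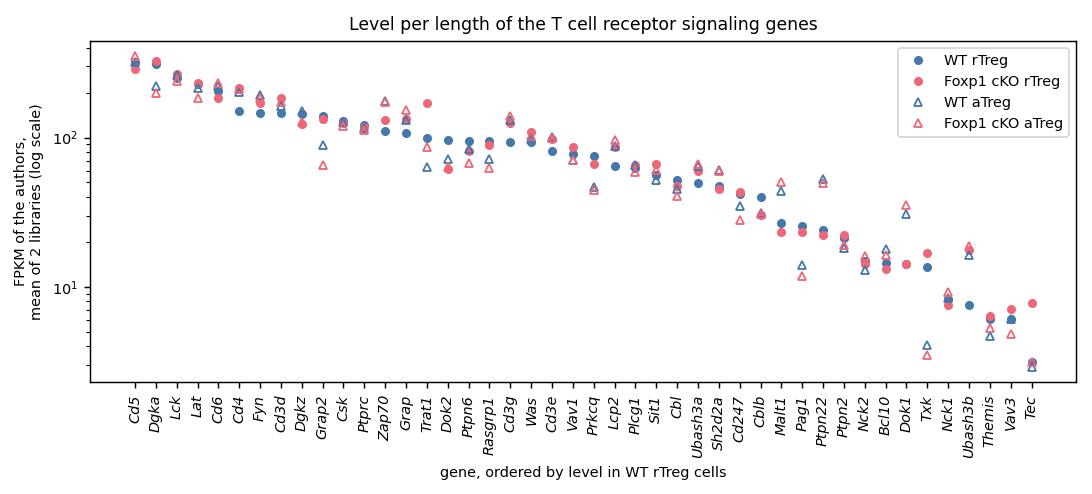
Mean FPKM of 2 libraries in each of the 4 groups (vertical axis, log scale) for the 44 genes, ordered along the horizontal axis by their level in WT rTreg cells from Cd5 (321 FPKM) to Tec (3.11 FPKM). Circles are rTreg and triangles aTreg cells, blue WT and red Foxp1 cKO. Tec and Ubash3b in Foxp1 cKO rTreg cells lie above WT rTreg, and Txk, Pag1 and Grap2 lie lower in aTreg cells of both genotypes.

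The first comparison set the rTreg libraries labelled Foxp1 cKO against those of WT mice, to ask how the pathway differed by genotype in resting cells. In Foxp1 cKO rTreg cells compared with WT rTreg cells, 12 of the 44 genes were higher and 2 were lower at an adjusted p under 0.05 (edgeR quasi-likelihood test with the replicate number as a block, Benjamini-Hochberg adjustment over 14540 genes). These genes are termed called. Tec and Ubash3b rose more than 2-fold, Trat1 rose 1.73-fold, and Cd4 and the 3 CD3 genes rose by 1.22- to 1.45-fold. The fall of Cblb and Dgkz was smaller than 1.5-fold. The higher calls were 27.3% of the 44 genes, beside 6.57% of all genes tested, and the lower calls were 4.55% beside 5.45%, with 12.0% of all genes called in either direction. Here and below, the genes tested were not matched for level to the 44, of which 43 had at least 100 counts in every library. Small changes are called more readily at high counts, so a larger share is not by itself a result about the pathway. Past the 1.5-fold threshold that the study used, 3 genes were higher (6.82%, beside 2.90% of all genes) and 0 were lower (beside 2.70%).

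Changes were small for most of the pathway. The median log2 fold change was 0.07 over the 44 genes and 0.0029 over all genes, and the median size regardless of sign was 0.17 against 0.21. In 19 genes (43.2%) both Foxp1 cKO libraries lay above both WT libraries, beside 22.9% of all genes. In 10 genes (22.7%) both lay below, beside 22.3%. Without the block on the replicate number, 3 genes (Cd4, Tec and Ubash3b) were called higher and 0 lower, beside 181 and 119 of the 14540 genes. Calls in either direction over all genes fell from 12% to 2.06% without the block. They fell as well when an rTreg library was left out. Among the 44, fewer genes were likewise called higher, and fewer lower, in each of these fits. Cd4, Tec and Ubash3b were called under each of the 14 alternatives run. Trat1 missed the threshold in 1 of them, the fit with no block (adjusted p = 0.0788).

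**Figure D2:**
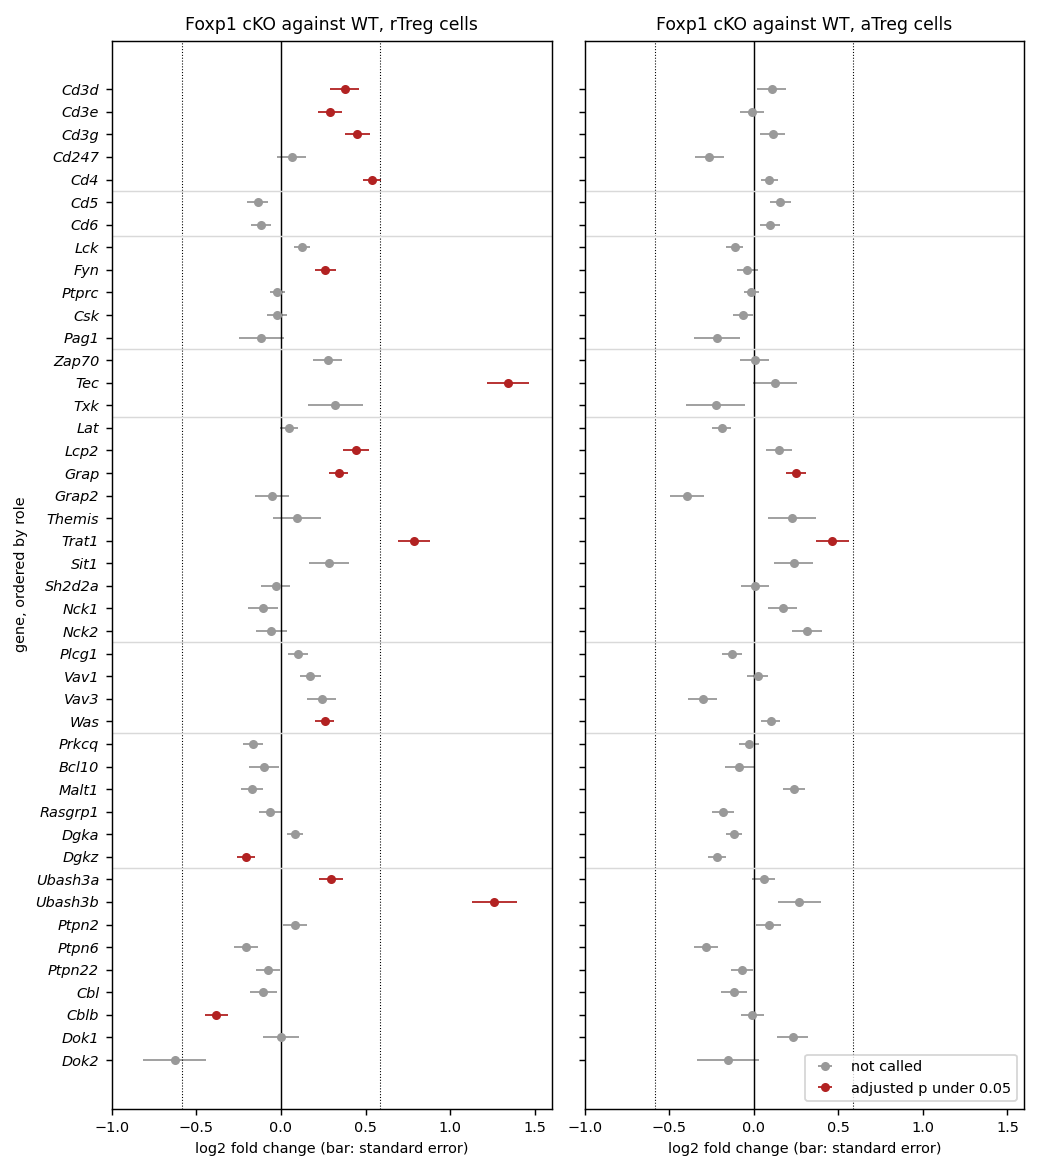
Log2 fold change of Foxp1 cKO against WT (horizontal axis) with its standard error (bar) for the 44 genes ordered by role, in rTreg cells (left) and aTreg cells (right). Red marks an adjusted p under 0.05 and dotted lines mark 1.5-fold. In rTreg cells 14 genes are red, with Tec at 1.34 and Ubash3b at 1.26, and in aTreg cells Grap and Trat1 are red.

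Of the receptor chains and the coreceptor, 4 of 5 were called higher in rTreg cells. Cd3g, which encodes the gamma chain of CD3, was at 307 and 309 CPM in WT and at 402 and 441 CPM in Foxp1 cKO rTreg libraries. Cd3d, the delta chain, was at 273 and 259 CPM against 319 and 371 CPM. Cd3e, the epsilon chain, was at 343 and 327 CPM against 413 and 407 CPM. For each of the 3 genes, both Foxp1 cKO libraries lay above both WT libraries. Their log2 fold changes were 0.45 for Cd3g (SE 0.08, adjusted p = 0.0107), 0.38 for Cd3d (SE 0.09, adjusted p = 0.0319) and 0.29 for Cd3e (SE 0.07, adjusted p = 0.0390). The zeta chain gene Cd247 was at 209 and 245 CPM against 222 and 251 CPM, groups that overlap, and its log2 fold change of 0.06 was not called (adjusted p = 0.672).

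Cd4 (chr6:124864692-124888221, minus strand), whose product brings Lck to the receptor and which was itself a gate of the sort, was at 592 and 628 CPM in WT and at 837 and 936 CPM in Foxp1 cKO rTreg libraries. The groups were apart by more than their spread, with a log2 fold change of 0.54 (SE 0.05, adjusted p = 0.0012). Its adjusted p without the block was 0.0321. Cd5 and Cd6, paired surface receptors that tune the strength of the signal, had log2 fold changes of -0.14 and -0.12 and were not called.

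The constant segments of the receptor itself are given beside these chains, and were added after their values were seen. Trac, the alpha chain constant segment, was at 193 and 163 CPM in WT rTreg and at 347 and 436 CPM in Foxp1 cKO rTreg libraries. In aTreg cells it was at 239 and 181 CPM against 384 and 470 CPM. Both Foxp1 cKO libraries lay above both WT libraries in each subset. The log2 fold change was 1.14 in rTreg (SE 0.17, adjusted p = 0.0077) and 1.03 in aTreg cells (SE 0.17, adjusted p = 0.0161, and 0.0764 without the block). Trbc1 and Trbc2, the near-identical beta chain segments that share reads, had log2 fold changes of 0.16 and 0.28 in rTreg cells and were not called (adjusted p = 0.1165 and 0.0737).

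Among the kinases, Tec stood out by size. This member of the Tec family (chr5:72755716-72868483, minus strand) was at 11.5 and 12.0 CPM in WT rTreg and at 26.5 and 33.2 CPM in Foxp1 cKO rTreg libraries, while all 4 aTreg libraries held 9.77 to 11.9 CPM. Both Foxp1 cKO rTreg libraries lay above the other 6, a 2.54-fold rise in rTreg cells (log2 fold change 1.34, SE 0.13, adjusted p = 0.0012, and 0.0141 without the block). Its neighbor Txk was at 161 and 140 CPM against 192 and 184 CPM, groups that do not overlap, and its log2 fold change of 0.32 (SE 0.16) was not called (adjusted p = 0.235). Fyn rose by 0.26 on the log2 scale, from 631 and 652 CPM to 749 and 788 CPM (adjusted p = 0.0360). Lck, the kinase that starts the cascade, was at 724 and 759 CPM against 780 and 837 CPM, a log2 fold change of 0.12 that was not called (adjusted p = 0.142). Zap70 was at 343 and 324 CPM against 419 and 389 CPM, a log2 fold change of 0.28 that also missed the threshold (adjusted p = 0.0785). In both genes the Foxp1 cKO libraries lay above the WT libraries. Ptprc, the phosphatase CD45 that keeps Lck active, Csk, the kinase that shuts it off, and Pag1, the membrane anchor of Csk, had log2 fold changes of -0.02, -0.03 and -0.12.

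Of the 10 adaptors, 3 were called higher and 0 lower. Trat1 (chr16:48730774-48772021, minus strand) encodes a transmembrane adaptor that associates with the receptor complex. It was at 63.8 and 74.0 CPM in WT and at 110 and 128 CPM in Foxp1 cKO rTreg libraries, with no overlap (log2 fold change 0.79, SE 0.09, adjusted p = 0.0031). Lcp2, which encodes SLP-76, was at 281 and 296 CPM against 355 and 433 CPM (log2 fold change 0.45, adjusted p = 0.0121). Grap, a Grb2-like adaptor, was at 192 and 198 CPM against 233 and 260 CPM (log2 fold change 0.34, adjusted p = 0.0122). Lat, the scaffold on which the complex forms, was at 607 and 676 CPM against 648 and 675 CPM, with overlapping groups and a log2 fold change of 0.05. The other uncalled adaptors, Grap2, Themis, Sit1, Sh2d2a, Nck1 and Nck2, had values between -0.11 and 0.28.

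Of the phospholipase, exchange factors and actin regulator, 1 of 4 was called higher. Was, the activator of actin branching mutated in Wiskott-Aldrich syndrome, rose by 0.26 on the log2 scale, from 215 and 233 CPM to 262 and 274 CPM (adjusted p = 0.0255). Plcg1, the phospholipase of the complex, Vav1 and Vav3 had log2 fold changes of 0.10, 0.17 and 0.24 and were not called. In the diacylglycerol branch, Dgkz, which with Dgka removes this messenger, was at 915 and 905 CPM in WT and at 818 and 763 CPM in Foxp1 cKO rTreg libraries (log2 fold change -0.20, SE 0.05, adjusted p = 0.0444). Dgka, the Ras exchange factor Rasgrp1, the kinase Prkcq and the NF-kB adaptors Bcl10 and Malt1 had values between -0.17 and 0.08, none of them called.

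Of the 9 phosphatases, ubiquitin ligases and docking inhibitors, 2 were called higher and 1 lower. The related phosphatases Ubash3a and Ubash3b, also termed Sts-2 and Sts-1, both rose. Ubash3b (chr9:41011098-41161697, minus strand) was at 57.8 and 53.5 CPM in WT and at 142 and 125 CPM in Foxp1 cKO rTreg libraries, a 2.40-fold difference (log2 fold change 1.26, SE 0.13, adjusted p = 0.0019, and 0.0321 without the block). Ubash3a was at 169 and 165 CPM against 198 and 212 CPM (log2 fold change 0.30, adjusted p = 0.0338). Cblb, a ubiquitin ligase that restrains receptor signaling, was at 231 and 281 CPM against 184 and 208 CPM. Its groups did not overlap, and it fell by 0.38 on the log2 scale (SE 0.07, adjusted p = 0.0130). Its paralog Cbl had a log2 fold change of -0.10, and the phosphatases Ptpn2, Ptpn6 and Ptpn22 had values between -0.21 and 0.08. Dok2, a docking protein, was at 239 and 324 CPM against 209 and 155 CPM, a log2 fold change of -0.63 with a standard error of 0.18 that was not called (adjusted p = 0.0667).

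**Figure D3:**
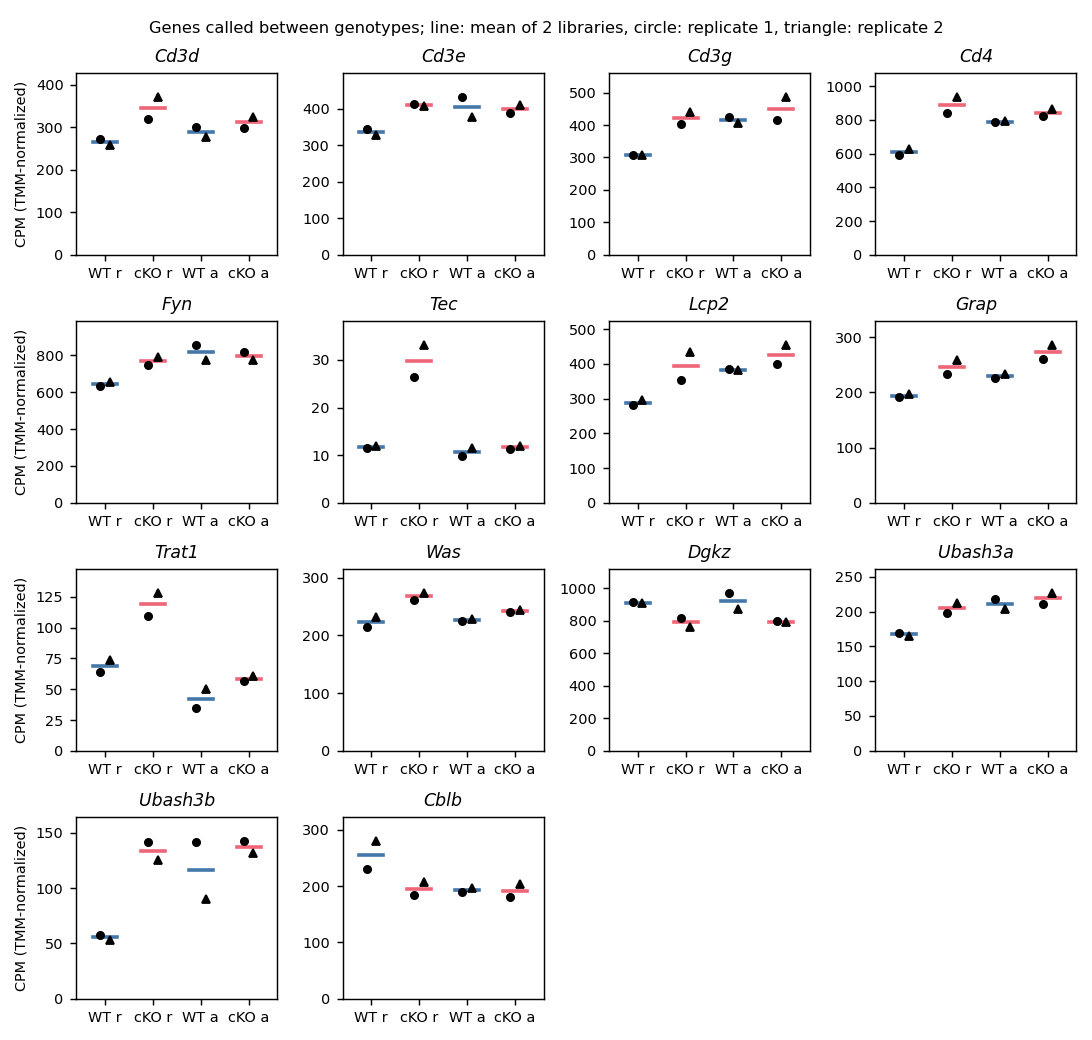
CPM (vertical axis, from 0, scaled to library size by TMM) of the 14 genes called between genotypes, in WT rTreg, Foxp1 cKO rTreg, WT aTreg and Foxp1 cKO aTreg cells. Circles are replicate 1, triangles replicate 2, and lines the mean of 2 libraries. Tec lies between 26.5 and 33.2 CPM in Foxp1 cKO rTreg and between 9.77 and 12.0 CPM in the other 6 libraries.

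Transcripts of other cell types differed between the rTreg groups as well. The summed level of 8 myeloid markers was 1.93 and 0.786 CPM in WT rTreg and 17.7 and 6.86 CPM in Foxp1 cKO rTreg libraries. Of these markers, 2 and 5 were at 0 in the WT libraries and 0 and 1 in the Foxp1 cKO libraries, and the neutrophil genes Mpo and Elane were at 0 in both WT rTreg libraries. A pair of plasma cell markers, Jchain and Sdc1, summed to 2.03 and 0.393 CPM against 7.49 and 4.77 CPM. Foxp1 cKO aTreg 1 had the highest myeloid sum, 31.2 CPM. The part of these myeloid and plasma cell transcripts in the results was not tested. In all 8 libraries the summed markers of CD8 T cells were at most 16.7 CPM, of gamma-delta T cells 7.37, of NK cells 3.59 and of erythroid cells and platelets 3.03 CPM, beside 2423 to 3958 CPM for 6 Treg genes. In bulk RNA, fewer cells of a type and less RNA per cell cannot be told apart.

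In aTreg cells, the second comparison, the same pathway showed fewer calls. Grap and Trat1 were called higher in Foxp1 cKO aTreg cells (4.55% of the 44 genes, beside 4.11% of all genes) and 0 genes were called lower (beside 2.77%). At an unadjusted p under 0.05 there were 14 genes (31.8%), beside 23.3% of all genes. The median log2 fold change was -0.001 over the 44 genes and 0.0018 over all genes. Trat1 was at 34.8 and 50.1 CPM in WT and at 56.3 and 60.5 CPM in Foxp1 cKO aTreg libraries (log2 fold change 0.46, SE 0.10, adjusted p = 0.0341). Grap was at 227 and 233 CPM against 260 and 286 CPM (log2 fold change 0.25, SE 0.06, adjusted p = 0.0473). For both genes the groups did not overlap, and both were also called higher in rTreg cells, as were 2.17% of all genes in both comparisons. The receptor genes Cd3d, Cd3e, Cd3g and Cd4 had log2 fold changes between -0.01 and 0.11. Cd4 was at 784 and 795 CPM in WT and at 822 and 862 CPM in Foxp1 cKO aTreg libraries. Cd3g was at 424 and 408 CPM against 415 and 487 CPM, and Cd3e at 432 and 376 CPM against 389 and 411 CPM, groups that overlap.

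Calls at this margin moved with the fit. Without the block neither gene was called (adjusted p = 0.359 for Trat1 and 0.304 for Grap). Limma-voom and DESeq2 both called 3 genes lower, Grap2, Dgkz and Ptpn6, whose adjusted p in the edgeR fit was 0.0603, 0.0508 and 0.0592. Among all genes they called 471 and 345 lower, beside 403 with edgeR. WT aTreg 1 and WT aTreg 2 stood apart for several members. Grap2, the adaptor Gads, was at 214 and 336 CPM there and at 186 and 227 CPM in Foxp1 cKO aTreg libraries, and Ubash3b was at 142 and 90.2 CPM against 143 and 131 CPM. Without WT aTreg 1, the log2 fold change was 0.54 for Ubash3b, -0.58 for Grap2 and -0.40 for Cd247. Without WT aTreg 2 it was 0.017, -0.19 and -0.11. Pag1 and Txk went from -0.47 and -0.53 without WT aTreg 1 to 0.07 and 0.15 without WT aTreg 2. Grap lost its call whenever 1 library was left out, and Trat1 kept it only without WT aTreg 2. Fewer of all genes were called in aTreg cells in these fits as well.

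The difference between the genotype effects in both subsets was then tested directly, as the change in aTreg cells minus that in rTreg cells. With edgeR, 0 of the 44 genes were called (beside 0.330% of all genes), and 21 of them (47.7%) had an unadjusted p under 0.05, beside 12.8% of all genes. Limma-voom called 2 genes, Cd4 and Tec, and DESeq2 called 4, adding Malt1 and Ubash3b. These fits called 0.406% and 2.57% of all genes given an adjusted p. Tec had the largest difference, -1.22 on the log2 scale (SE 0.18, adjusted p = 0.0531), from its effect of 1.34 in rTreg and 0.13 in aTreg cells. Ubash3b followed at -0.99 (SE 0.18, adjusted p = 0.0675), from 1.26 and 0.27. For Cd4 the difference was -0.45 (SE 0.07, adjusted p = 0.0531), from 0.54 and 0.09. Malt1 differed the other way, by 0.41 (SE 0.09, adjusted p = 0.115), with an effect of -0.17 in rTreg and 0.24 in aTreg cells. Over limma-voom, DESeq2, no filter on low counts and the 8 fits with 1 library left out, the adjusted p ranged from 0.00145 to 0.270 for Tec, from 0.000172 to 0.271 for Cd4, from 2.84e-05 to 0.339 for Ubash3b and from 0.0156 to 0.397 for Malt1. Without the block it was 0.305 for Tec and 0.530 for Cd4. All 5 receptor chain and coreceptor genes had differences below 0, from -0.45 to -0.27, none of them called with edgeR. So did 29 of the 44 genes, and the median was -0.11 over the 44 and -0.0115 over all genes. The 5 genes were measured in the same libraries and are not separate evidence.

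The remaining comparisons set aTreg against rTreg cells within each genotype. In WT cells, 13 of the 44 genes were higher in aTreg cells (29.5%, beside 18.2% of all genes) and 13 were lower (29.5%, beside 13.6%). At 2-fold or more there were 3 higher (6.82%, beside 9.50%) and 1 lower (2.27%, beside 2.83%). In Foxp1 cKO cells, 7 were higher (15.9%, beside 21.9%) and 17 were lower (38.6%, beside 18.2%). At 2-fold or more, 3 were higher (6.82%, beside 11.3%) and 5 lower (11.4%, beside 4.39%). The median log2 fold change over the 44 genes was -0.05 in WT and -0.12 in Foxp1 cKO cells, against -0.0046 and -0.018 over all genes. Without the block, 6 genes were called lower in WT cells and 4 higher in Foxp1 cKO cells, and the other counts were 9 and 12. Calls in either direction over all genes fell from 31.9% to 16.3% in WT and from 40.1% to 23.9% in Foxp1 cKO cells. Without WT aTreg 1, fewer genes were called lower in WT cells, among the 44 and among all genes alike. The same held for genes higher in Foxp1 cKO cells without Foxp1 cKO rTreg 1, Foxp1 cKO rTreg 2 or Foxp1 cKO aTreg 2.

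Each genotype had its own libraries here, but the fit shared the spread and the replicate difference between them, so the comparisons are not fully separate. In both, 16 of the 44 genes were called in the same direction, 5 higher (11.4%, beside 15.6% of all genes) and 11 lower (25%, beside 10.3%). In opposite directions 0 were called (beside 0.172%). Ptpn22, the phosphatase that acts on Lck and Zap70, was at 137 and 191 CPM in WT rTreg and at 313 and 387 CPM in WT aTreg libraries. In Foxp1 cKO cells it was at 141 and 168 CPM and at 300 and 366 CPM. Its log2 fold change was 1.10 in WT and 1.11 in Foxp1 cKO cells. Dok1, a docking protein of the same inhibitory class as Dok2, was at 28.4 and 28.7 CPM in WT rTreg and at 54.9 and 63.5 CPM in WT aTreg libraries, and in Foxp1 cKO cells it went from 30.4 and 27.2 CPM to 66.0 and 73.1 CPM. Its changes were 1.06 and 1.29. Malt1, the protease of the complex that activates NF-kB, was at 132 and 140 CPM in WT rTreg and at 201 and 230 CPM in WT aTreg libraries, and went from 112 and 131 CPM to 230 and 280 CPM in Foxp1 cKO cells. It rose by 0.66 in WT and 1.07 in Foxp1 cKO cells. For Ptpn22, Dok1 and Malt1, all 4 aTreg libraries lay above all 4 rTreg libraries. Zap70 rose by 0.62 in WT cells, to 587 and 445 CPM, and by 0.35 in Foxp1 cKO cells, to 523 and 506 CPM. The adaptor Sh2d2a rose by 0.31 and 0.35.

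Genes lower in aTreg cells of both genotypes were led by Txk. It was at 161 and 140 CPM in WT rTreg and at 36.1 and 50.7 CPM in WT aTreg libraries, and at 192 and 184 CPM against 42.5 and 32.9 CPM in Foxp1 cKO cells. All 4 aTreg libraries lay below all 4 rTreg libraries, with log2 fold changes of -1.77 (SE 0.17) and -2.32 (SE 0.17). Pag1 was at 241 and 252 CPM in WT rTreg and at 107 and 155 CPM in WT aTreg libraries, and at 230 and 225 CPM against 115 and 109 CPM in Foxp1 cKO cells (log2 fold changes -0.92 and -1.02). Grap2 was at 410 and 480 CPM in WT rTreg and at 393 and 465 CPM in Foxp1 cKO rTreg libraries, above the aTreg values given earlier (-0.72 and -1.06). Trat1 had log2 fold changes of -0.70 and -1.02. Prkcq, the protein kinase C theta of the immunological synapse, had values of -0.76 and -0.62, Dgka of -0.55 and -0.75, and Rasgrp1 of -0.43 and -0.55. Cd247 had values of -0.34 and -0.67, going from 209 and 245 CPM to 150 and 211 CPM in WT cells and from 222 and 251 CPM to 139 and 159 CPM in Foxp1 cKO cells. Ptpn2, Ptpn6 and Cbl were also lower in both, by less than 1.5-fold. Under all 14 alternatives, Ptpn22, Dok1 and Malt1 were called higher in both genotypes, and Txk, Pag1, Trat1, Prkcq, Rasgrp1 and Dgka lower in both.

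**Figure D4:**
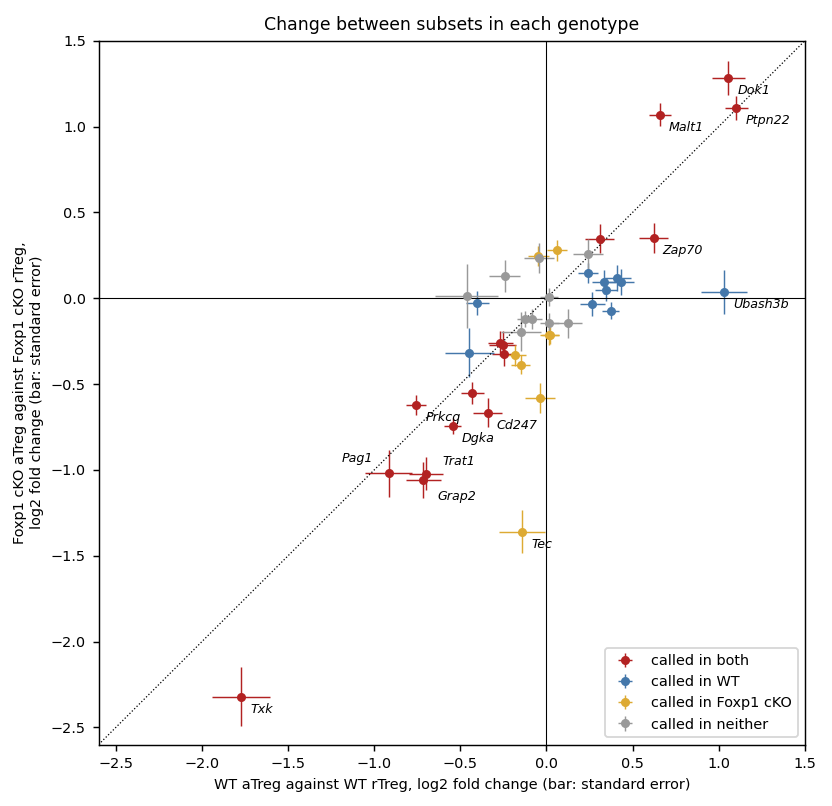
Log2 fold change of aTreg against rTreg cells in WT (horizontal axis) and in Foxp1 cKO cells (vertical axis) for the 44 genes, with standard errors as bars. The dotted line marks equal change, and color marks the genotypes in which a gene was called. Txk lies lowest at -1.77 and -2.32, Ptpn22 and Dok1 lie at the upper right, and Tec and Ubash3b lie farthest from the line.

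Some genes were called between subsets in 1 genotype, which is not by itself a difference between genotypes. In WT cells Cd3e, Cd3g, Cd4, Fyn, Lcp2, Grap, Ubash3a and Ubash3b were higher in aTreg cells, and Themis and Cblb were lower, with no call in Foxp1 cKO cells. In Foxp1 cKO cells Cd5 and Cd6 were higher (0.25 and 0.28 on the log2 scale), and Lck, Tec, Lat, Plcg1, Vav1 and Vav3 lower, with no call in WT cells. Lat was at 533 and 625 CPM in WT aTreg and at 483 and 531 CPM in Foxp1 cKO aTreg libraries, and Lck at 754 and 750 CPM against 672 and 720 CPM. Their changes between Foxp1 cKO subsets were -0.39 and -0.22. Tec had a log2 fold change of -1.36 there and -0.14 in WT cells. The WT change between subsets and the rTreg change between genotypes share the WT rTreg libraries, so their values are given side by side and not as separate evidence. For Ubash3b they were 1.03 and 1.26, for Cd3g 0.43 and 0.45, for Lcp2 0.41 and 0.45, for Cd4 0.37 and 0.54, for Fyn 0.35 and 0.26, and for Cblb -0.40 and -0.38. The 7 genes called in no comparison of groups were Ptprc, Csk, Sit1, Nck1, Nck2, Bcl10 and Dok2. Beside the subset changes, 6 B cell markers summed to 8.29 to 11.0 CPM in rTreg and 33.6 to 39.1 CPM in aTreg libraries, there chiefly Cd22 and Cd79b, while Ms4a1 stayed at or below 0.256 CPM. Their part was not tested.

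**Figure D5:**
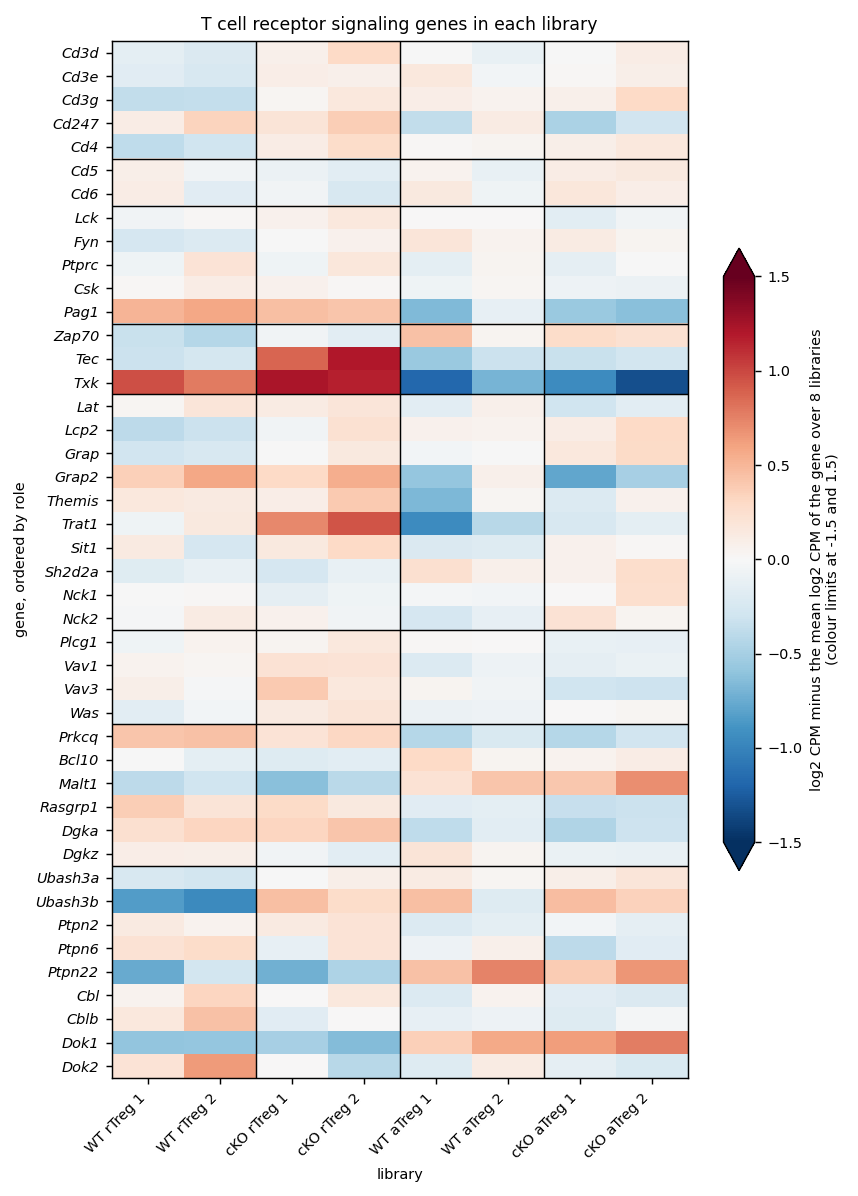
Log2 CPM of each of the 44 genes minus its mean over the 8 libraries (color, red higher and blue lower, limits at -1.5 and 1.5), with libraries as columns and genes as rows grouped by role. Tec is red in the Foxp1 cKO rTreg libraries, Ubash3b is blue in the WT rTreg libraries, and Txk, Pag1 and Prkcq go from red in rTreg to blue in aTreg libraries of both genotypes.

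A further 51 genes of the pathway that are not among the 44, of which 50 passed the filter, were measured beside them. Between genotypes in rTreg cells, 5 were higher (10%, beside the 6.57% of all genes) and 4 lower (8.00%, beside 5.45%). Higher were the adaptor Skap1 by 0.39 on the log2 scale, the diacylglycerol kinase Dgke by 0.55, the Ras regulator Rasal3 by 0.31, the small GTPase Cdc42 by 0.24 and the actin regulator Coro1a by 0.19. Lower were Ptprj, a receptor phosphatase, with a log2 fold change of -1.36, Ptpn12 with -0.50, the adaptor Fyb with -0.40 and the exchange factor Sos2 with -0.37. Ptprj was at 8.38 and 9.82 CPM in WT and at 3.98 and 3.32 CPM in Foxp1 cKO rTreg libraries, and its aTreg level was 45.9 to 63.0 CPM. In aTreg cells Cdc42 and Dgke were higher (log2 fold changes 0.35 and 0.25; 4% of the 50 genes, beside 4.11% of all genes) and Ptpn12 was lower (-0.44; 2.00%, beside 2.77%). Between subsets, 14 were higher (28.0%, beside 18.2%) and 16 lower (32.0%, beside 13.6%) in aTreg cells of WT mice. In those of Foxp1 cKO mice, 15 were higher (30%, beside 21.9%) and 16 lower (32.0%, beside 18.2%).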

How the data were processed

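RNA of 8 sorted Treg libraries (HiSeq X) was analysed from the deposited gene counts and FPKM values. According to the study's methods, the authors trimmed reads, removed duplicates and made whole-number counts with HTSeq. Submitters' processing notes name HISAT2 2.0.5 and the build mm10. The FPKM values of the authors rescale the same counts. The annotation release and the strand setting are not given in the sources used here.

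Counts were fitted with edgeR 4.0.16 (R 4.3.3; TMM, filterByExpr with a minimum count of 10) across all 8 libraries, with group means and the replicate number as a block. P-values were adjusted over 14540 genes. The CPM printed are TMM-scaled, apart from the floor of 3 counts, which is relative to total counts. The block follows the paired analysis stated in the methods. Same-numbered libraries deviated together in all 6 pairs of groups, with correlations of 0.355 to 0.597. Limma-voom (3.58.1), DESeq2 (1.42.0), another scaling, no filter, a filter of 1 CPM in 2 libraries, no block and each library left out were the alternatives. A standard error is the log2 fold change divided by the root of F. The code was tested on simulated data. The 44 genes and all lists were chosen with earlier results of these data known. By the naming rule, values in every library are given for genes called between genotypes or at least 2-fold between subsets, and for Cd3e, Cd247, Cd4, Lck, Zap70 and Lat, others by range and count, and further pathway genes where called between genotypes (Dok2, Tnfaip3 and the receptor constant segments were added after their values were seen). The 3-count floor covers counting error only. Some genes are not reported here.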

Additional observations from a re-analysis of the deposited data

Results flagged for a closer look

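The genotype effect on Foxp1 itself, the targeted gene, differed between the subsets by -0.92 on the log2 scale (aTreg minus rTreg), from -0.12 in rTreg and -1.03 in aTreg cells, and this difference passed the edgeR test of the difference (adjusted p = 0.0477) but not without the replicate block (adjusted p = 0.288). None of the 44 pathway genes passed that test, and their values are given with the comparison of the genotype effects.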

How the results depend on the processing

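No change between groups of a called gene reversed its direction under the 14 alternatives. Without the replicate block, the called genes numbered 3 higher and 0 lower in Foxp1 cKO rTreg cells, 0 higher in Foxp1 cKO aTreg cells, 6 lower in WT aTreg against rTreg cells, and 4 higher in Foxp1 cKO aTreg against rTreg cells. Among all 14540 genes the same counts were 181, 119, 46, 760 and 2155. With no filter on low counts, 4 genes were lower in Foxp1 cKO rTreg cells, 4 higher and 4 lower in Foxp1 cKO aTreg cells, and 6 were called for the difference between the genotype effects. Among all 27594 genes that fit called 1232, 1095 and 749, and 2.08% for the difference. Limma-voom and DESeq2 each called 3 genes lower in Foxp1 cKO aTreg cells (beside 471 and 345 of all genes). For the difference they called 2 and 4 (beside 0.406% and 2.57% of all genes given an adjusted p). Median-of-ratios scaling called 1 gene higher in Foxp1 cKO aTreg cells, beside 575 of all genes. With 1 library left out, a fit in which the lone library of a group is assumed to vary like the other groups, the counts ranged from 4 to 14 higher and 0 to 2 lower in Foxp1 cKO rTreg cells, and from 0 to 1 higher and 0 to 4 lower in Foxp1 cKO aTreg cells. They ranged from 9 to 14 higher and 8 to 12 lower between WT subsets, from 3 to 9 higher and 12 to 18 lower between Foxp1 cKO subsets, and from 0 to 3 for the difference. With 2 libraries a group, log2 fold changes near the median standard error of 0.0721 in rTreg cells were not detectable, and larger ones could be missed. In simulated data, the comparison of Foxp1 cKO with WT rTreg cells called 14 of 50 genes changed 1.5-fold. It called 37 of 50 at 2-fold, 37 of 50 at 4-fold and 45 of 50 at 8-fold. These rates are for a simulated set of 14146 genes that was not matched for level to the pathway genes. They do not give the rate at which changes in the pathway genes would be called. With 2 libraries a group, a gene that was not called is still not shown to be unchanged.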

Other observations

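Among the further pathway genes, Tnfaip3, a deubiquitinase that restrains NF-kB, followed the replicate number rather than the groups. It was at 1426 to 1645 CPM in the 4 libraries of replicate 1 and at 243 to 536 CPM in the 4 libraries of replicate 2, and it was called in no comparison between groups.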
